A study of Drosophila melanogaster with 3 samples.

Results

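The regions described here are strong ChIP-seq peaks whose highest point, the summit, fell at or just downstream of the start of a protein-coding gene. A peak was taken when its nearest protein-coding transcription start lay within 500 bp and the summit stood at that start or on the transcribed side of it. Summits with the starts of a divergent gene pair both within 500 bp were left out. Of the 4246 peaks that passed the authors' reproducibility procedure (the optimal peaks), 242 met this rule, at the starts of 234 of 13945 protein-coding genes. The optimal list also held 1273 peaks whose summit stood upstream of a single start, 972 peaks at divergent start pairs and 1759 peaks further than 500 bp from any protein-coding start.

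All samples came from 1 group of Drosophila melanogaster embryos, 0 to 24 h old and of both sexes, from a transgenic line that carries HLH54F joined at its C terminus to green fluorescent protein (GFP). There were 3 biological replicates, and chromatin had been sonicated to 200 to 800 bp. The labels disagree on the antibody, since a free-text entry states GFP and another field states HLH54F. Whole embryos were used, so tissues cannot be told apart, and there was no second genotype or stage to compare with.

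HLH54F is a basic helix-loop-helix (bHLH) transcription factor needed for the caudal visceral mesoderm, whose cells migrate along the embryonic gut and form its longitudinal muscles. Factors of this family bind a short palindrome-like element called the E-box, with the general form CANNTG. A core promoter is the stretch around a start where RNA polymerase II assembles. In flies, many core promoters of widely expressed genes carry elements such as the DNA replication-related element (DRE), which the factor DREF binds, and the element called motif 1, which the factor M1BP binds, while others carry a TATA box or an initiator. Sequence just downstream of a start is transcribed, and it usually belongs to the 5′ untranslated exon.

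The sequences below show 4 short elements whose shares are compared by distance from the start, each at the 2 strongest of the peaks that had their summit at 0 to 50 bp and carried it within 100 bp of the summit. Stronger carriers with summits further downstream, such as CG12316 for CAGCTG, are not shown. They are read from the release 6 genome in dm6 coordinates, 30 bases each, 5′ to 3′ on the strand of the gene, with the element in capitals. The first pair holds CAGCTG, an E-box form, in peaks of the genes CG9399 (chr3R:9574166-9574195, minus strand) and Amun (chrX:11714857-11714886, minus strand), 31 and 34 bp downstream of their starts.
CG9399, E-box: gctgtagtacccCAGCTGttgcggtgctaa
Amun, E-box: cagcacatcgcaCAGCTGcatcgctccgct
The second pair holds the DRE core ATCGATA, at RpL26 (chr3L:18898851-18898880, plus strand), whose element lies 10 bp upstream of the start, and at Gnpat (chr3R:25490845-25490874, minus strand), whose element lies 76 bp downstream and reads on the other strand.
RpL26, DRE core: atgacagtgttATCGATActagctgaatta
Gnpat, DRE core: aaattgccgaaTATCGATtcgcagctgctg
The third pair holds the motif 1 core GGTCACAC on the other strand, at indra (chr3L:1342384-1342413, minus strand) and CG4098 (chr3L:16609366-16609395, minus strand), 27 and 33 bp upstream of their starts.
indra, motif 1 core: aatgtaacttaGTGTGACCggaatgcgcaa
CG4098, motif 1 core: tatgcggcctaGTGTGACCagctggtccta
The fourth pair holds the motif 7 core CANCNCTA, at CG9399 (chr3R:9574209-9574238, minus strand) and CG33695 (chr2L:11277978-11278007, plus strand), 12 and 28 bp upstream of their starts.
CG9399, motif 7 core: acaacgtttacCAACACTAgaatttgagat
CG33695, motif 7 core: aatacatattcTAGTGTTGtgcattggaaa
The Gnpat and CG4098 stretches each also hold CAGCTG in lower case, at CG4098 with its first base shared with the motif 1 core.

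Summits crowded close to the start and then thinned out. The median summit lay 77 bp downstream, with quartiles of 27 and 228 bp and a range of 0 to 498 bp. There were 100 summits at 0 to 50 bp (41.3%), 64 at 51 to 150 bp (26.4%) and 78 at 151 to 500 bp (32.2%). Per 100 bp of sequence this was 196 summits at 0 to 50 bp, 64 at 51 to 150 bp, 18 at 151 to 300 bp and 25.5 at 301 to 500 bp, against 35.4 at 501 to 1000 bp, beyond the limit of the rule. Beyond 150 bp the summits were no denser than those deeper in the gene. These distance classes were set after the positions had been seen, so the positions are a description with no test.

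**Figure D1:**
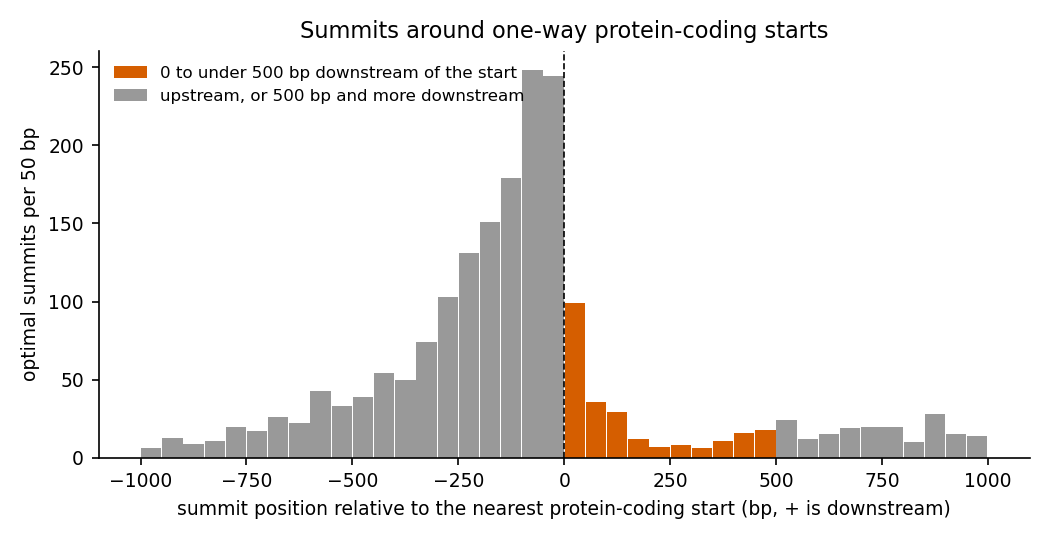
Number of optimal summits per 50 bp (vertical axis) against position relative to the nearest protein-coding start (horizontal axis, bp, positive downstream), without divergent pairs within 500 bp. Orange bars are summits up to 500 bp downstream and grey bars all others; the first orange bar holds 99 summits and the grey bar on its left holds 244.

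The boundary of the rule at the start itself cut through a dense group of summits. In 7 peaks the summit stood exactly on an annotated start, and CG7386 was the strongest of these (signal 259, rank 917). At GlcT and Cenp-C it stood 1 bp upstream, at the ribosomal protein gene RpS29 2 bp upstream, and at p47 and Pep 3 bp upstream, so these were left out. At the far edge the last peaks inside were omd and CG15247 at 498 bp, CG31523 and DopEcR, a receptor for dopamine and ecdysone, at 493 bp, and CG42514 at 490 bp. The first outside were Pcyt1 at 501 bp, RhoGAP68F at 502 bp, Fbl6 and CG5854 at 503 bp, and kuk at 504 bp. Signals were 97.1 to 319 among the 5 last inside and 134 to 560 among the 5 first outside.

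Position within the gene followed this distance. The summit fell in an untranslated exon in 180 of 242 peaks (74.4%), in an intron in 58 (24.0%) and in a coding exon in 4 (1.65%). All 100 summits at 0 to 50 bp were in untranslated exons, as were 58 of 64 at 51 to 150 bp. At 151 to 500 bp, 54 of 78 were in introns and 22 in untranslated exons. Arm 2L carried 37 downstream peaks, 2R carried 39, 3L had 56, 3R had 60, X had 50 and chromosome 4 had 0. The share on X was 20.7% of downstream peaks and 18.3% of upstream peaks, a difference of 2.36 percentage points with a 95% interval of -2.77 to 8.26.

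Although all belong to the optimal list, downstream peaks were among its weaker members. The authors' signal value, used here only to rank peaks within a list, ran from 92.7 to 1791 with a median of 133 in downstream peaks, against a median of 159 in upstream peaks, 179 in peaks at divergent start pairs and 154 in the whole list. It exceeded the list's median in 38.4% of downstream peaks and 52.5% of upstream peaks (odds ratio 0.565, Fisher's exact test, two-sided, adjusted p = 0.000149 over 12 features). Among the 500 strongest peaks were 7.85% of downstream and 14.0% of upstream peaks (exact test, adjusted p = 0.0152). The share above the median was 33.0% at 0 to 50 bp, 32.8% at 51 to 150 bp and 50% at 151 to 500 bp. The peaks compared are disjoint sets, but peaks are not independent replicates, and every interval given here covers counting error over peaks only.

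The strongest downstream peak stood 79 bp downstream of a start of PNPase, which encodes a mitochondrial polynucleotide phosphorylase. That start was not the one of the Ensembl canonical transcript. The peak ranked 8 in the optimal list with a signal of 1791, and 6, 8 and 14 in the lists of replicates 1, 2 and 3. Its replicate summits lay 79, 81 and 81 bp downstream, an SD of 1.15 bp. The second was GstE13, a glutathione S-transferase gene, with a signal of 1393 and ranks 19, 33 and 18 in the replicates; its replicate summits lay 61, 71 and 90 bp downstream. Both were far ahead of the rest, since the next peak, at CG31612, had a signal of 653 and replicate ranks of 126, 127 and 148. That summit lay in an intron, 489 bp downstream in the optimal list and 486, 473 and 448 bp downstream in the replicates.

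The remaining genes among the 20 strongest peaks that were found in all replicates fall into a few kinds. Distances are from the nearest annotated start, which at several genes, such as ph-p and Trl, was not that of the Ensembl canonical transcript. Chromatin and transcription regulators were ph-p, a Polycomb group gene (signal 449, 412 bp), Trl, which encodes GAGA factor (signal 398, 157 bp), Eip75B, an ecdysone-induced nuclear receptor gene (signal 407, 6 bp), CHES-1-like, a forkhead factor gene (signal 363, 135 bp), and zf30C, a zinc finger gene (signal 454, 34 bp). Membrane and signalling genes were Trpm, a cation channel gene (signal 408, 135 bp), Nrx-1, which encodes neurexin (signal 353, 142 bp), and Ptp4E, a receptor tyrosine phosphatase gene (signal 351, 418 bp). Metabolic genes were egh, an enzyme of glycosphingolipid synthesis (signal 407, 347 bp), and Sqor, which encodes sulfide quinone oxidoreductase (signal 338, 14 bp). Eip63F-1, an ecdysone-induced calcium-binding protein gene, had a signal of 439 at 470 bp, and rudhira had 420 at 272 bp. The others are known by CG numbers: CG18622 (signal 608, 230 bp), CG2811 (signal 546, 9 bp), CG9399 (signal 534, 25 bp), CG12316 (signal 491, 110 bp) and CG14434 (signal 440, 121 bp).

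Replicates agreed on the position of most of these 20 peaks and differed at a few. At Eip63F-1 the replicate summits lay 476, 488 and 487 bp downstream, an SD of 6.66 bp. At Trpm they lay 146, 138 and 150 bp downstream, an SD of 6.11 bp. At Eip75B they lay 24 bp downstream, 6 bp upstream and 110 bp downstream, the widest spread of the 20 with an SD of 60.2 bp, and the peak ranked 275, 246 and 775. At Trl the ranks were 323, 889 and 283, with replicate 2 apart from the other 2.

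**Figure D2:**
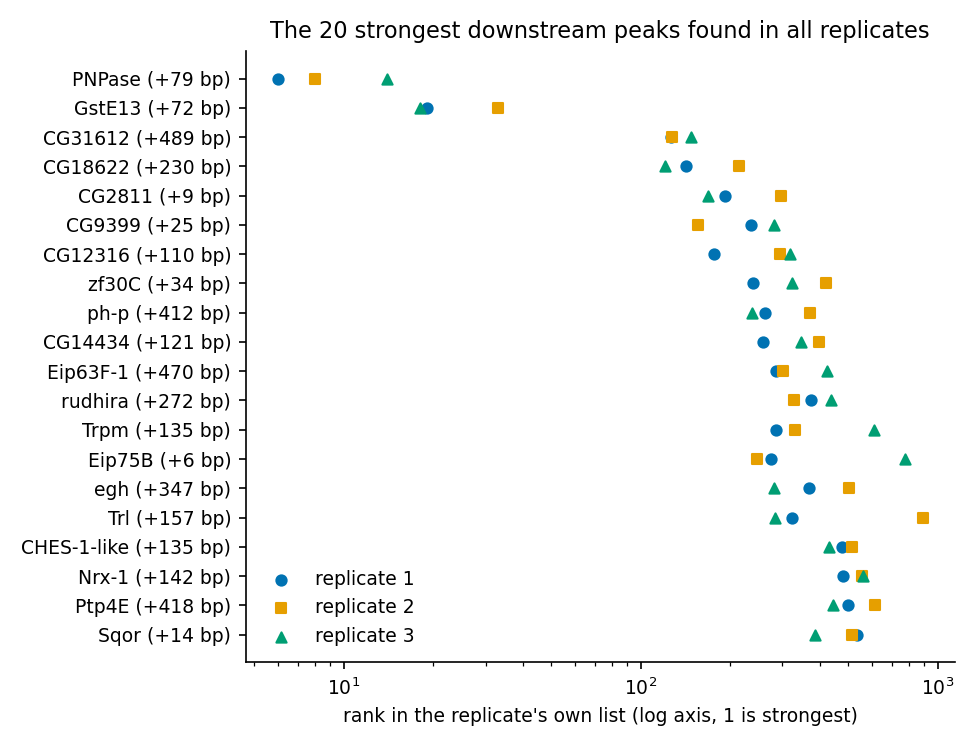
Rank in each replicate's own list (horizontal log axis, 1 is strongest) of the 20 strongest downstream peaks found in all 3 replicates, with the gene and the optimal summit's distance downstream on the vertical axis. All ranks lie between 6 and 889, PNPase and GstE13 stand apart at the strong end, and Trl in replicate 2 is the weakest point.

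Support over replicates was lower for downstream peaks than for upstream ones, and the difference lay in replicate 3. Each replicate's list was cut to its 4246 strongest peaks, and a peak was found if its summit fell within such a peak. Being found thus depends on signal, and downstream peaks were the weaker set. The optimal peaks rest on the pooled reads, so no replicate is independent of them. All 3 replicates held 137 of 242 downstream peaks (56.6%, 95% Wilson interval 50.3 to 62.7), against 67.5% of upstream peaks and 66.2% of all optimal peaks. The difference from upstream peaks was -10.9 percentage points (95% interval -17.7 to -4.23, Fisher's exact test, two-sided, adjusted p = 0.0029 over 12 features). Replicate 1 held 88.0% of downstream and 89.6% of upstream peaks, and replicate 2 held 85.5% and 83.1% of the same sets; neither difference passed the test, and their intervals were -6.49 to 2.41 and -2.93 to 6.86 points. Replicate 3 held 71.1% of downstream and 84.8% of upstream peaks (exact test, adjusted p = 4.64e-06). With replicate 3 left out, 76.0% of downstream peaks were found in both others, 0.464 points above the upstream share (Fisher's exact test, p = 0.935).

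The shortfall in replicate 3 was greatest near the start. Replicate 3 held 65.0% of the peaks at 0 to 50 bp, 68.8% of those at 51 to 150 bp and 80.8% of those at 151 to 500 bp, while replicate 1 held 88.0%, 87.5% and 88.5% of the same classes and replicate 2 held 88.0%, 79.7% and 87.2%. The same appeared when the rule was applied to each replicate's own 4246 strongest peaks. Those lists had 288, 335 and 199 downstream peaks in replicates 1, 2 and 3 (274 ± 69.1, SD, n = 3), of which 116, 147 and 60 lay at 0 to 50 bp and 87, 101 and 84 at 151 to 500 bp. The SD was 44.1 peaks around a mean of 108 at 0 to 50 bp, against 48.6 peaks around a mean of 1221 for upstream peaks, which numbered 1252, 1165 and 1246. Relative to the mean, the counts at 0 to 50 bp varied more than those of upstream peaks. Replicate 3 also had the shortest deposited list, 24914 peaks against 30000 in each of the others. Signal exceeded the list's median in 33.0% of peaks at 0 to 50 bp, 32.8% at 51 to 150 bp and 50% at 151 to 500 bp. The part of signal, list length or depth in the replicate 3 shortfall was not tested.

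**Figure D3:**
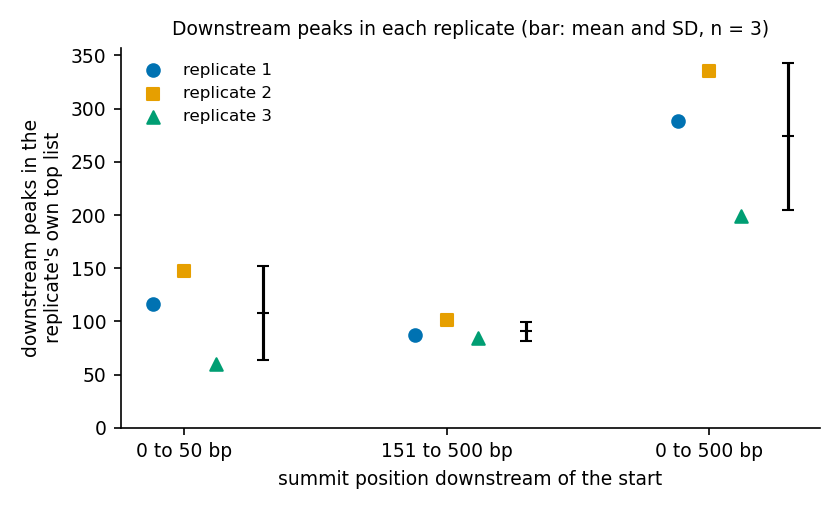
Number of downstream peaks (vertical axis) in each replicate's own list of 4246 strongest peaks, by summit position (horizontal axis); points are replicates and black bars the mean and SD (n = 3). At 0 to 50 bp the replicates have 116, 147 and 60 peaks, and at 151 to 500 bp 87, 101 and 84.

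Whether the summit stayed downstream of the same start depended on how far inside it was. In the replicates' full lists, the overlapping peak's summit was downstream of the same start for 90.5%, 90.5% and 78.5% of the 242 peaks in replicates 1, 2 and 3 (86.5% ± 6.92, SD, n = 3). All 3 replicates kept that side for 166 peaks (68.6%, 62.5 to 74.1), 2 did for 58, 1 for 14 and none for 4; a replicate without an overlapping peak counted as not keeping it. The share kept in all 3 was 40% at 0 to 50 bp (30.9 to 49.8), 79.7% at 51 to 150 bp (68.3 to 87.7) and 96.2% at 151 to 500 bp (89.3 to 98.7). Upstream peaks kept their own side in all 3 replicates in 89.7%. The median SD of the replicate positions was 28.5, 27.6 and 25.5 bp in the 3 distance classes in order, so the scatter between replicates was of similar size in each class.

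**Figure D4:**
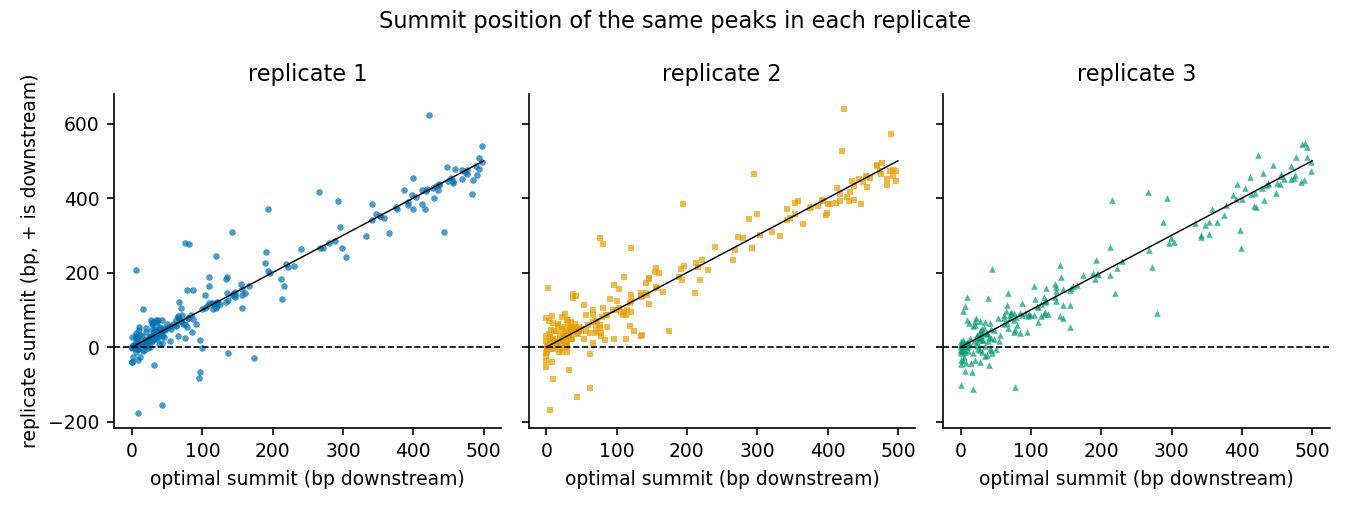
Summit position in each replicate (vertical axis, bp, positive downstream of the same start) against the optimal summit (horizontal axis, bp downstream) for the downstream peaks with an overlapping replicate peak: 241, 240 and 222 in replicates 1, 2 and 3. The solid line marks equal positions and the dashed line the start; crossings below it are mostly at optimal positions near 0 bp.

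Downstream peaks lay more often at genes with several starts. The gene had 2 or more annotated starts in 73.1% of downstream and 54.4% of upstream peaks (odds ratio 2.29, Fisher's exact test, two-sided, adjusted p = 2.36e-07). At least 2 starts of the gene lay within 500 bp of the summit in 34.7% of downstream and 16.3% of upstream peaks (odds ratio 2.72, exact test, adjusted p = 5.1e-09), and in 41.0%, 50% and 14.1% at 0 to 50, 51 to 150 and 151 to 500 bp. In 26.9% of downstream peaks a further start of the same gene followed within 500 bp. The number of starts bears on which start is nearest, so this comparison is not free of the geometry of the rule. The nearest start was that of the Ensembl canonical transcript in 57.0% of downstream and 68.3% of upstream peaks (exact test, adjusted p = 0.00576 over 7 features of the surroundings). When only canonical starts were used, 152 of the 242 peaks remained downstream of one, 14 became upstream and 76 lay more than 500 bp from any.

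Other surroundings did not pass the test. A divergent protein-coding start lay within 1000 bp behind the start in 16.9% of downstream and 11.2% of upstream peaks (difference 5.71 points, 1.12 to 11.2, exact test, adjusted p = 0.062). The start lay inside another protein-coding gene in 10.3% of downstream and 10.5% of upstream peaks (difference interval -3.90 to 4.55 points). A gene on the same strand ended within 500 bp behind the start in 24.4% of downstream and 23.8% of upstream peaks (interval -4.96 to 6.79 points). A further optimal summit lay within 1000 bp in 24.0% of downstream and 20.3% of upstream peaks (interval -1.75 to 9.84 points).

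The 8 genes Amun, CG18622, CG2017, Cftr, RpL26, Trpm, egh and woc had a pair of downstream peaks. Of the 234 genes with a downstream peak, 41 also had an upstream peak, which 8.31% of all protein-coding genes had. At Trpm the pair stood at separate starts, at 135 and 134 bp, with signals of 408 and 164. At egh, signals were 407 and 116 at 347 and 293 bp from separate starts. At CG18622, CG2017 and woc both summits were measured from 1 start, and at RpL26 from nearby starts, in peaks that overlapped each other; 8 of the 242 peaks overlapped another of them. These overlapping peaks share sequence and are not separate observations. Counting every optimal peak, 23 of the 242 overlapped another one, so downstream peaks also share some sequence with peaks of the other sets.

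The DRE core, motif 1 and motif 7 were more frequent at downstream summits than in windows of the same 201 bp centred 600 bp further along the gene. Elements were searched on both strands. For each peak the summit and flank windows formed a pair, tested with the two-sided exact McNemar test and adjusted over 14 motifs. The DRE core ATCGATA was present in 14.0% of summit windows (10.2 to 18.99) and 3.31% of flank windows (exact test, adjusted p = 0.000296). The motif 1 core GGTCACAC was in 4.96% of summit windows (2.86 to 8.47) and 0.826% of flank windows (exact test, adjusted p = 0.0453). With flanks behind the start the motif 1 difference was 2.48 points and did not pass (exact test, adjusted p = 0.476). The motif 7 core CANCNCTA was in 18.2% of summit windows (13.8 to 23.5) and 4.55% of flank windows (exact test, adjusted p = 4.74e-05). The initiator letters TCAGT were in 36.8% of summit windows and 22.7% of flank windows (exact test, adjusted p = 0.00408). These 5 letters were also common in other windows. Upstream summit windows held them in 33.1% and those at divergent start pairs in 29.5%. Summit windows of peaks over 500 bp from any start held them in 37.3%, and windows centred on all 19253 starts in 43.4%. Among the 137 peaks found in all 3 replicates, no difference of the DRE core, motif 1 or motif 7 passed the test, at 5.84, 3.65 and 11.7 points, and windows of 50 bp each side gave 3.72 points for the DRE core and 1.24 for motif 1, also short of it. GC content averaged 42.2% in summit windows and 45.8% in flank windows, and the part of base composition was not tested.

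In each replicate's own list of downstream peaks these differences kept their direction. The DRE core was 10.8, 11.3 and 6.03 percentage points more frequent at summits than in flanks in replicates 1, 2 and 3 (9.38 ± 2.91, SD, n = 3). Motif 7 was 13.9, 15.2 and 10.1 points more frequent (13.1 ± 2.69). Motif 1 was 5.21, 5.67 and 2.51 points more frequent (4.46 ± 1.71). The lists share the control and many of the same sites, so the replicates are not independent in sequence.

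E-boxes counted over all forms had the same share in flanks as at these summits. The general form CANNTG was in 64.0% of summit windows and 64.0% of flank windows, and in 61.1% of upstream summit windows. The form CAGCTG was in 17.4% of downstream summit windows (13.1 to 22.6) and 10.7% of their flanks, which did not pass the test (exact test, adjusted p = 0.157). It was in 11.1% of upstream summit windows, and the difference of 6.28 points (1.65 to 11.8) missed the threshold after adjustment (Fisher's exact test, two-sided, p = 0.00943, adjusted p = 0.066). Downstream windows held it more often than those of peaks far from any start, 17.4% against 6.42% (exact test, adjusted p = 3.6e-07). Peaks at divergent start pairs held it in 18.3%, and the downstream share differed from this by -0.957 points (-5.92 to 4.80, exact test, adjusted p = 0.949). Over windows of the same length centred on all 19253 protein-coding starts the share was 13.4%. In the replicates' own lists the downstream share exceeded the upstream share by 1.75, 4.45 and 2.73 points (2.98 ± 1.36, SD, n = 3).

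The TATA letters were less frequent in downstream peaks than in upstream ones, and also than in peaks far from any start or at divergent start pairs. Peaks over 500 bp from any start held TATAAA in 30.7% of summit windows, and divergent start pairs in 35.6%. Both differed from the downstream share (Fisher's exact test, two-sided, adjusted p = 0.00333 and 8.04e-05). TATAAA was in 20.7% of downstream and 30.2% of upstream summit windows (difference -9.58 points, -14.9 to -3.52, Fisher's exact test, two-sided, adjusted p = 0.0343). The difference was -12.8, -13.1 and -6.36 points in the own lists of replicates 1, 2 and 3 (-10.7 ± 3.80, SD, n = 3). GC content averaged 42.2% in downstream and 37.9% in upstream summit windows, beside this difference, and its part was not tested. The comparison of the other 13 motifs with upstream peaks did not pass the threshold. For the DRE core the shares were 14.0% and 17.2% in downstream and upstream windows (difference interval -7.55 to 2.17 points), for motif 1 4.96% and 4.79% (-2.31 to 3.83), and for motif 7 18.2% and 17.8% (-4.44 to 6.13).

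The elements were concentrated in the summits nearest the start. CAGCTG was in 26.0% of windows at 0 to 50 bp (18.4 to 35.4), 15.6% at 51 to 150 bp (8.71 to 26.4) and 7.69% at 151 to 500 bp (3.57 to 15.8). The DRE core was in 27.0%, 7.81% and 2.56% of the same classes, and the motif 7 core in 33.0%, 15.6% and 1.28%. The motif 1 core was in 11.0%, 1.56% and 0% of them, where 0 of 78 windows allows a share of up to 4.69% (Wilson). At least 1 of the 4 was present in 66 of 100 windows at 0 to 50 bp and 9 of 78 at 151 to 500 bp. That share was 39.3% over all downstream peaks and 38.6% over upstream peaks. Windows of the first class cover the start itself, and windows centred on all 19253 starts held CAGCTG in 13.4%, the DRE core in 12.7%, motif 1 in 5.68% and motif 7 in 11.0%.

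Peaks away from any start, given beside the farthest class, held CAGCTG in 6.42%, the DRE core in 1.88%, motif 1 in 0.227% and motif 7 in 5.29%. In the replicates' own lists the DRE core was in 26.8% ± 1.59 at 0 to 50 bp and 2.62% ± 0.842 at 151 to 500 bp (SD, n = 3). CAGCTG was in 19.6% ± 2.45 at 0 to 50 bp and 9.20% ± 1.04 at 151 to 500 bp, and motif 7 in 29.9% ± 2.00 and 3.94% ± 1.85 of the same classes. GC content of the optimal windows fell with distance, at 44.2%, 42.2% and 39.8%. Because the classes were set with the values known, no test is given between them.

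**Figure D5:**
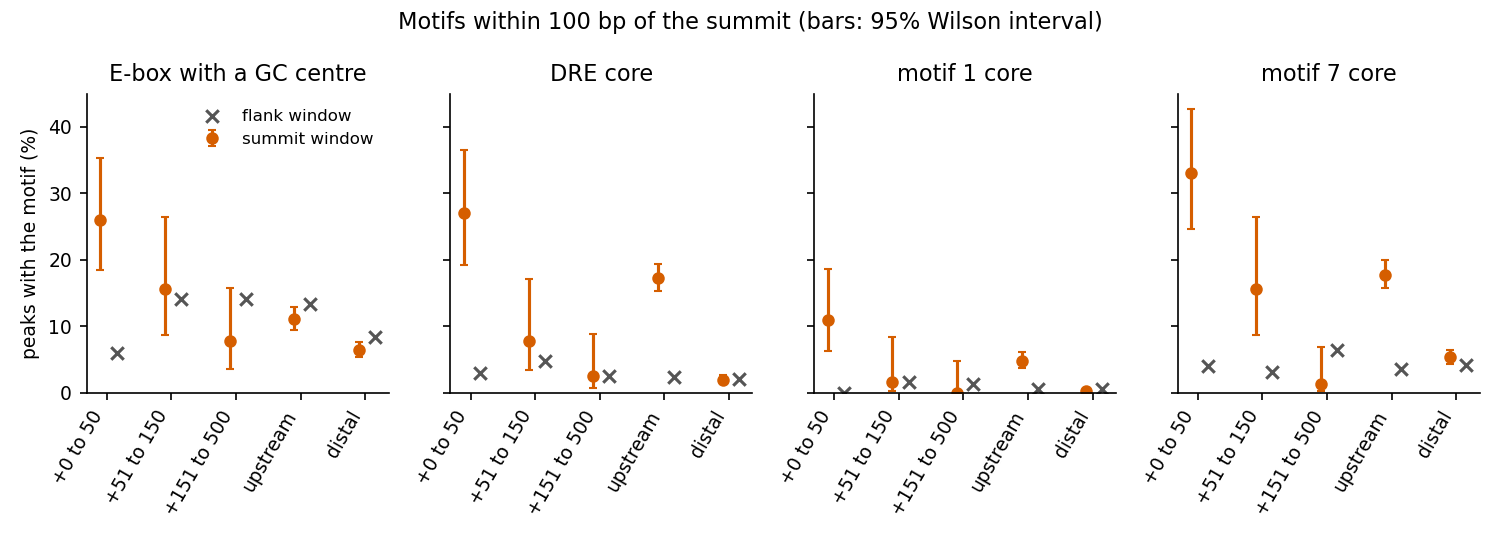
Share of peaks with an element within 100 bp of the summit (orange, with 95% Wilson interval) and in the flank window 600 bp further along the gene (grey cross), for downstream peaks in 3 distance classes, then upstream and distal peaks. The E-box with a GC centre is CAGCTG; it falls over the classes from 26.0% to 7.69%, the DRE core from 27.0% to 2.56% and motif 7 from 33.0% to 1.28%.

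The side of the start on which an element lay is given as a description with no test, because the sets are defined by the side of the summit and the copy nearest the summit was taken, which favours the summit's own side. Among peaks with a DRE core within 250 bp of the start, that copy was downstream of the start in 32.7% of 49 downstream peaks and 15.2% of 270 upstream peaks. The motif 7 copy was downstream in 50.7% of 69 downstream peaks and 34.7% of 346 upstream peaks. For motif 1 the shares were 21.7% of 23 downstream peaks and 47.6% of 105 upstream peaks, and for CAGCTG 52.5% of 80 downstream peaks and 46.5% of 361 upstream peaks.

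The initiator at the start itself gave no difference from upstream peaks past the threshold over all 242 peaks. TCAGT with its A within 5 bp of the annotated start was found at 11.2% of downstream and 12.6% of upstream peaks (difference -1.49 points, -5.38 to 3.41, Fisher's exact test, two-sided, p = 0.595). The difference was -4.86 points with canonical starts only (exact test, unadjusted p = 0.0301) and -6.50 points for peaks found in all 3 replicates (exact test, unadjusted p = 0.0291). Downstream peaks had the initiator more often than peaks at divergent start pairs, 11.2% against 3.4% (exact test, adjusted p = 1.56e-05).

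A search over all reverse-complement classes of 6 bases called 46 of them (2.21%) by the exact McNemar test between summit windows and flanks, 23 more frequent and 23 less frequent at the summit. Of those more frequent at the summit, AAAATA led, in 44.6% of summit and 25.2% of flank windows (exact test, adjusted p = 0.00491). It was in 45.5% of flanks behind the start. Further classes of only A and T were called, among them TAATTA, in 12.4% of summit windows, 2.48% of flanks and 18.2% of flanks behind the start. CGATAG was in 16.9% of summit and 4.13% of flank windows (exact test, adjusted p = 0.00574) and TATCGA in 21.5% and 7.85% (exact test, adjusted p = 0.00628). CGATAG and TATCGA overlap the DRE core. AACACT was in 24.8% of summit and 9.92% of flank windows (exact test, adjusted p = 0.00574), and ACAGCT, which overlaps CAGCTG, in 17.8% and 5.37% (adjusted p = 0.00703). With windows of 50 bp each side none was called, and with summits at least 51 bp downstream 1 was. Against a flank 600 bp behind the start instead, 4 classes were called, and ACACTG alone was more frequent at the summit against both, in 23.1% of summit windows, 9.50% of the flanks ahead and 8.68% of those behind. The leading classes that were less frequent at summits, CTGGAC and AGGAGA, were in 1.24% and 2.48% of summit windows and 13.2% and 15.3% of flanks (exact test, adjusted p = 0.000816 for each).

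By gene function the downstream peaks were thinly spread. Of all protein-coding genes, 234 (1.68%) had one, and counts for lists of genes are given beside this share with no test. Cytosolic ribosomal protein genes, whose products build the ribosome, had one at 7 of 87 (8.05%), among them RpL26 (signal 325), RpS4 (237), RpS23 (163) and RpS30 (135). The summits of these 4 lay 9 to 38 bp downstream. Of the same 87 genes, 28 had an upstream peak (32.2%, against 8.31% of all protein-coding genes). Chromatin regulators had one at 4 of 48 (8.33%): besides ph-p and Trl these were nej, the fly CREB-binding protein gene, with a signal of 167 at 423 bp, and BEAF-32, an insulator protein gene, with a signal of 107 at 65 bp. BEAF-32 ranked 3309 and 3819 in replicates 1 and 3, and no peak of replicate 2 covered its summit.

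Among genes of the tissue in which HLH54F acts, 2 of 26 caudal visceral mesoderm and gut muscle genes had a downstream peak (7.69%, against 1.68% of all protein-coding genes). They were if, an integrin alpha subunit gene, with a signal of 149 at 299 bp, and Mef2, a muscle transcription factor gene, with a signal of 115 at 4 bp. A count this small does not set the list apart from the share of all genes. Of the same 26 genes, 3 had an upstream peak (11.5%, against 8.31% of all protein-coding genes). The Mef2 summit window held the DRE core and the motif 1 core. In replicates 1, 2 and 3 the Mef2 peak ranked 3459, 2452 and 4651, the last outside the 4246 strongest. Of 53 bHLH genes 1 had one (1.89%, near the share of all genes). It was emc, which encodes an inhibitor of bHLH factors, with a signal of 98.6 at 96 bp and ranks of 5041, 2206 and 21342 in the replicates, so 1 replicate of 3 placed it among its 4246 strongest. Of 28 muscle structure genes and 50 homeodomain genes none had one.

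The housekeeping lists other than cytosolic ribosomal proteins held 0 to 2 such genes each, or 0% to 2.78% of a list. Over all protein-coding genes the share was 1.68%, and counts this small do not set these lists apart from it. Oxidative phosphorylation had 2 of 90, ND-13B and ND-B14.5A, both subunits of complex I, with signals of 127 and 94.8. The lists of 53 translation factors (eIF4A), 41 nuclear pore and transport genes (Karybeta3) and 36 Rab GTPases (Rab11) held 1 gene each. So did those of 108 vesicle sorting and fusion genes (Vha100-2), 39 DNA replication and repair genes (geminin) and 56 cell cycle genes (CycK). Membership is that of the lists used here, and function was not checked gene by gene. In replicates 1, 2 and 3, eIF4A ranked 3498, 6456 and 3018, and CycK 4528, 19199 and 1682. Signals of eIF4A, Karybeta3, Rab11, Vha100-2, geminin and CycK were 102 to 289. None was found among 75 mitochondrial ribosomal protein genes, 48 proteasome genes, 34 aminoacyl-tRNA synthetase genes, 40 splicing factor genes, 29 Mediator genes and 37 chaperone genes. Genes known only by a CG number had one at 48 of 6097 (0.787%).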

How the data were processed

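ChIP-seq peak lists in dm6 coordinates were used as deposited. Per the file headers and text records deposited with the samples, the lists of the 3 replicates and of their pool were relaxed input to the irreproducible discovery rate procedure, and the authors' optimal list was derived from them. Not given in the sources used here: aligner, peak caller, their versions, the settings and how the signal was scaled. The authors' signal value served to order the peaks of 1 list and nothing else. A −log10 q-value is deposited too, and no test used it. Read totals were not used, so depth is unknown.

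Starts were 5′ ends of protein-coding transcripts of protein-coding genes in Ensembl release 115 (annotation BDGP6.54), and sequence came from the release 6 genome. Summits are the deposited offset from the peak start. Replicate lists were cut to 4246 peaks. Features of downstream and upstream peaks were compared by Fisher's exact test, and summit with flank windows by the exact McNemar test, both two-sided with Benjamini-Hochberg adjustment and a threshold of 0.05. Intervals of single shares are 95% Wilson intervals, and intervals of differences were built from these by Newcombe's method. Python 3.11.15, numpy 2.4.6, pandas 2.3.3, scipy 1.17.1 and matplotlib 3.10.9 were used. Named genes are the 20 strongest peaks found in all replicates, the 5 at each edge of the rule, genes with a pair of downstream peaks and at most 4 per gene list; sequences shown are those of the strongest carriers with summits at 0 to 50 bp that were found in all replicates. The peaks, motifs and gene lists were chosen with earlier results of these data known.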

Additional observations from a re-analysis of the deposited data

How the results depend on the processing

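Alternatives were other starts, limits, windows, flanks and replicates, and 2 distance classes added after seeing the data. The number of downstream peaks was 142 at 51 bp or more, 137 when found in all replicates and 409 with divergent pairs kept, and the median distance was 42 bp with a limit of 250 bp and 181.5 bp at 51 bp or more. Leaving out 1 replicate, the share found in the others was 59.9% to 76.0%, and the share keeping its side was 72.7% to 83.5%; that share was 58.1% with the 250 bp limit, 88.7% at 51 bp or more and 76.6% for peaks found in all replicates. The initiator share was 5.69% with canonical starts, 5.84% for peaks found in all replicates and 13.4% at 51 bp or more.

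Summit minus flank, in percentage points, was 1.41 for the DRE core, 2.82 for motif 7, -0.704 for motif 1 and -2.82 for CAGCTG at 51 bp or more. Over 150 bp it was 0 for the DRE core, -5.13 for motif 7, -1.28 for motif 1 and -6.41 for CAGCTG. For peaks found in all replicates it was 5.84, 11.7 and 3.65 for the DRE core, motif 7 and motif 1, none past the threshold. With 50 bp windows it was 3.72 for the DRE core and 1.24 for motif 1, and with the flank behind the start 2.48 for motif 1, none past the threshold. For CAGCTG it was 20 at 0 to 50 bp and 6.85 with divergent pairs kept.

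Downstream minus upstream, CAGCTG passed the threshold at 8.21 with canonical starts and 7.50 with divergent pairs kept. At 51 bp or more the DRE core was -12.3 and motif 7 was -10.0, both past it. Motif 7 was also -0.911 with canonical starts, -0.674 for peaks found in all replicates, -0.885 with divergent pairs kept and -2.41 with 200 bp windows, and motif 1 was -0.558 with the 250 bp limit, -4.09 at 51 bp or more, -0.584 with divergent pairs kept and -0.369 with 50 bp windows. The share of DRE or motif 1 copies downstream of the start, 34.4%, was 44.4% with canonical starts, 39.5% with the 250 bp limit, 41.4% for peaks found in all replicates and 34.3% with divergent pairs kept; the rule bears on this share, so these values support nothing. The hexamers called numbered 107 with canonical starts, 75 with the 250 bp limit, 1 at 51 bp or more, 23 for peaks found in all replicates, 398 with divergent pairs kept, 0 with 50 bp windows and 4 with the flank behind the start. The cause of these changes was not tested. No paired analysis was possible because the samples form 1 group; only windows of the same peak were paired.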
